A study of Drosophila melanogaster with 19 samples.

Results

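Proteins of the cytosolic ribosome of Drosophila are described here through the genes of the deposited table whose names start with RpL, for the large subunit, or with RpS, for the small subunit. The rule on names found 92 of 17735 genes, 54 of them RpL and 38 RpS, and used no measured value. Ribosomal proteins are needed in near equal numbers, because each ribosome holds a single copy of nearly every one of them, and loss of 1 copy of many of these genes gives the Minute phenotype of thin bristles and slow development. Their mRNAs are short, abundant and efficiently translated, carry a pyrimidine-rich start in many animals that lets nutrient signalling through TOR adjust their translation, and are loaded into the egg by the mother in large amounts. The fly embryo therefore starts its fast nuclear cycles with a maternal stock of these mRNAs, before its own genes take over at the mid-blastula transition, when the cycles slow in cycle 14 and cells form.

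The samples were single Drosophila melanogaster embryos, from which polyadenylated RNA was sequenced. The study's methods describe no injection of the control embryos. Control embryos were taken in nuclear cycle 12 (C12, 3 embryos in the labels), cycle 13 (C13, 3 embryos), early cycle 14 (C14E, 3 embryos) and late cycle 14 (C14L, 2 embryos). Arrested embryos were injected with double-stranded RNA against the 3 mitotic cyclins CycA, CycB and CycB3, which drive entry into mitosis, so that they stayed in cycle 12, and were taken 15, 30, 50 or 70 minutes after mitosis 11 (C12-15min to C12-70min, 2 embryos each). Per the study's methods the flies carried an RFP-tagged histone, and the RNA sequencing used cyclin RNAi without the Cdk inhibitor Frs. Because no injection of the controls is described, injection and cyclin loss cannot be told apart in any comparison between the 2 series.

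The table holds 1 column for each of the 8 conditions, the authors' mean over embryos in CPM (counts for 1000000 counts assigned to genes) as log2(CPM + 1), and no column for an embryo. No SD over embryos and no test between conditions is therefore given for these means, and a gene is counted as higher or lower where its difference on the log2(CPM + 1) scale passes a fold of 1.5. CPM is a share of a library: more ribosomal protein mRNA and less of other mRNA cannot be told apart in it. The smallest steps between values show how many libraries went into a mean and how many reads each had assigned to genes, which gave 18 embryos of 35957713 to 57998963 reads, with 2 rather than 3 in control C12, since per the study's methods an outlying C12 embryo was removed. Every comparison with control C12 therefore rests on the 2 embryos that were kept. Of the 82 members with at least 100 CPM in every condition, RpL34a had the lowest value, in control C12. That value corresponds to 8561 reads in the shallower of the 2 C12 libraries. The counting error is 1.08% if reads are counted as independent, which is small beside a fold of 1.5. Most read numbers of the rarest members were even, so this error may be too small. It also leaves out the spread between embryos of a condition, which reached 1.64-fold where it could be seen.

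The labels were checked on genes outside the family. The summed CPM of CycA, CycB and CycB3 was 8649 in control C12, 6576 in C12-15min and between 70.7 and 155 in C12-30min, C12-50min and C12-70min, so the cyclin mRNAs were still near the control level at 15 minutes. A list of 7 early zygotic genes, slam and twi among them, summed to 622 CPM in control C12 and 7565 in control C14E. The sum was 699 CPM in control C14L and 5457 in C12-70min, so it did not set C14L far from C12. A list of 5 maternal genes, smg and Hsp83 among them, summed to 4968 CPM in control C12 and 525 in control C14E. That sum was 739 CPM in control C14L and 539 in C12-70min. The 8 germ plasm markers, CycB among them and Pgcl near 0 throughout, summed to 5765 CPM in control C12 and to 291 CPM in C12-70min. They summed to 894 CPM in control C14E and 1256 in control C14L. CycB is also a target of the injected RNA, so the sum in the arrest is not separate from the check on the cyclins. In control C12 and C12-70min gcl had 419 and 30.7 CPM and osk 103 and 4.39 CPM. The part that the fall of maternal mRNAs plays in the members' share was not tested.

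Together the 92 genes took up 107394 CPM in control C12, or 10.7% of all reads assigned to genes. Later control stages held more of them, 18.0% in cycle 13, 15.2% in early and 15.6% in late cycle 14. In the arrested embryos the share was 11.95% at 15 minutes, 14.7% at 30 minutes, 16.2% at 50 minutes and 17.4% at 70 minutes. The share was thus highest in control C13 and in the longest arrest, and lowest in control C12. Relative to control C12 the summed CPM was 1.67 times as high in control C13, 1.45 times in control C14L and 1.62 times in C12-70min. The 2 subunits kept their proportion, since the summed CPM of the RpL genes was between 1.46 and 1.51 times that of the RpS genes in all 8 conditions. The 5 members with the highest CPM in a condition held between 11.2% and 12.2% of the sum there, so the totals were spread over many genes.

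**Figure D1:**
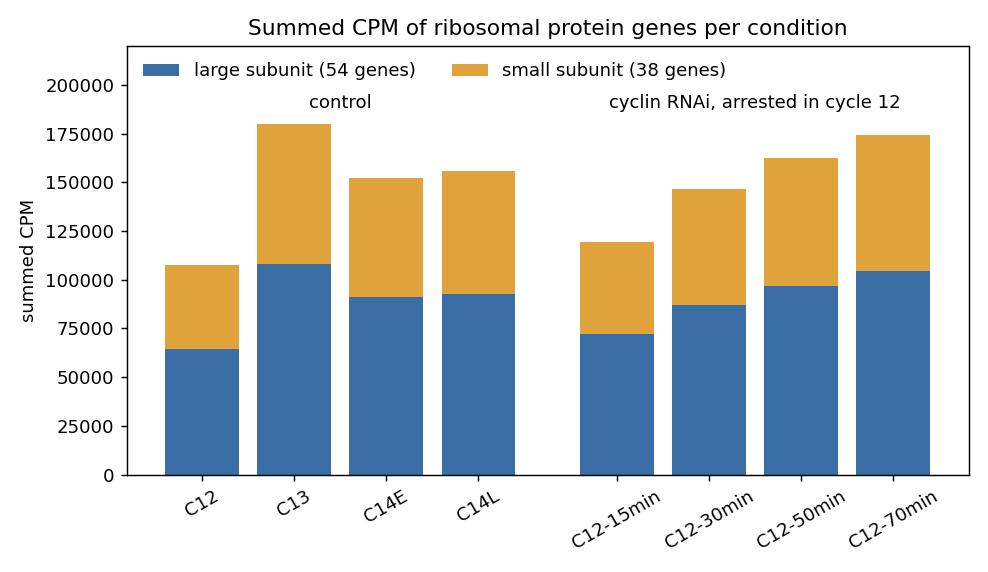
Summed CPM (vertical axis) of the large-subunit genes (blue) and small-subunit genes (orange) in the 4 control and the 4 arrested conditions, each bar being the authors' mean of a condition. The bars start at 107394 CPM in C12 and reach 179773 CPM in C13 and 174282 CPM in C12-70min, with the same proportion of both subunits in each.

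Most members were expressed at a high level. Of the 92 genes, 82 had at least 100 CPM in every condition and 2 more, RpLP0-like and RpS15Ab, at least 10 CPM in every condition. The other 8 stayed under 2 CPM throughout and are described last. Compared per length of the transcript, the highest member in control C12 was RpL41, which codes for the smallest ribosomal protein, with 5818 CPM per kb of transcript. RpL27A followed with 3954, RpL27 with 3318, RpS19a with 3229 and RpL10, a protein near the catalytic centre whose addition is a late step of large-subunit assembly, with 3070 CPM per kb. Among the 82 abundant members the level per kb had a median of 1603 in control C12 and spanned a 19.8-fold range, from RpL24-like at 294 CPM per kb to RpL41. This range was between 18.7-fold and 23.8-fold in every condition, and the order of the members by CPM in each other condition had a rank correlation of 0.95 to 0.98 with that in control C12 across the 82 genes, a description in which all genes share the libraries.

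The step from cycle 12 to cycle 13 in control embryos, which takes only minutes, held the largest difference. Of the 92 members 68 were higher by more than 1.5-fold in control C13 than in control C12 and 0 lower, against 4.14% higher among all 17735 genes and 11% lower. Of the 940 genes outside the family that reach 100 CPM in all 8 conditions, 7.45% were higher. All 82 abundant members were above their C12 value, with a median log2 difference of 0.76 and a range from 0.43 to 1.15. The largest differences were those of the large-subunit genes RpL37A, RpL29, RpL18 and RpL36 and of the small-subunit gene RpS15, named here after their values were seen. RpL37A went from 552 to 1229 CPM and RpL29 from 462 to 1017 CPM. The members that differed least were RpL23A with a log2 difference of 0.43, RpL22 with 0.43 and RpS9 with 0.44.

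In early cycle 14 the values came down again without returning to the level of cycle 12. Control C14E was below control C13 for 78 of the 82 abundant members, with a median log2 difference of -0.30, and the 4 members above it were RpL22, RpS2, RpL23A and RpL4. Past the 1.5-fold limit only 1 of 92 members was lower, RpL37A, which went from 1229 to 789 CPM and had also risen most in the step before. Both steps share the control C13 mean. Among all genes 14.4% were lower and 11.7% higher by that limit, and 0 members were higher. From C14E to C14L the members hardly moved, with a median log2 difference of 0.03 among the abundant ones, and 1 member was higher past the limit, the rare RpL37b, against 20% of all genes, and 0 were lower, against 9.16%.

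Across the control series as a whole, 31 of 92 members were higher in C14L than in C12 and 0 lower, against 19.5% higher and 16% lower among all genes and 19.3% higher among the 940 abundant genes outside the family. The median log2 difference was 0.53 over the 92 members, while it was -0.29 over the 3737 genes that keep 10 CPM or more throughout. Relative to this shift 86 of the 92 members were higher by more than 1.5-fold, against 26.6% of all genes and 33.5% of the 940 abundant genes outside the family. Of the 31, RpL37b and RpS19b stayed under 2 CPM. RpS15Ab rose most among the members with at least 10 CPM, with a log2 difference of 1.12, followed by RpS5a (0.76), RpL24-like (0.73), RpL36 (0.72) and RpS27A, a fusion of ubiquitin with a small-subunit protein (0.71). The smallest differences were those of RpLP0 (0.21), RpL27 (0.32), RpS19a (0.34), RpL36A (0.36) and RpL4 (0.41). No member with at least 10 CPM was lower in C14L than in C12.

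**Figure D2:**
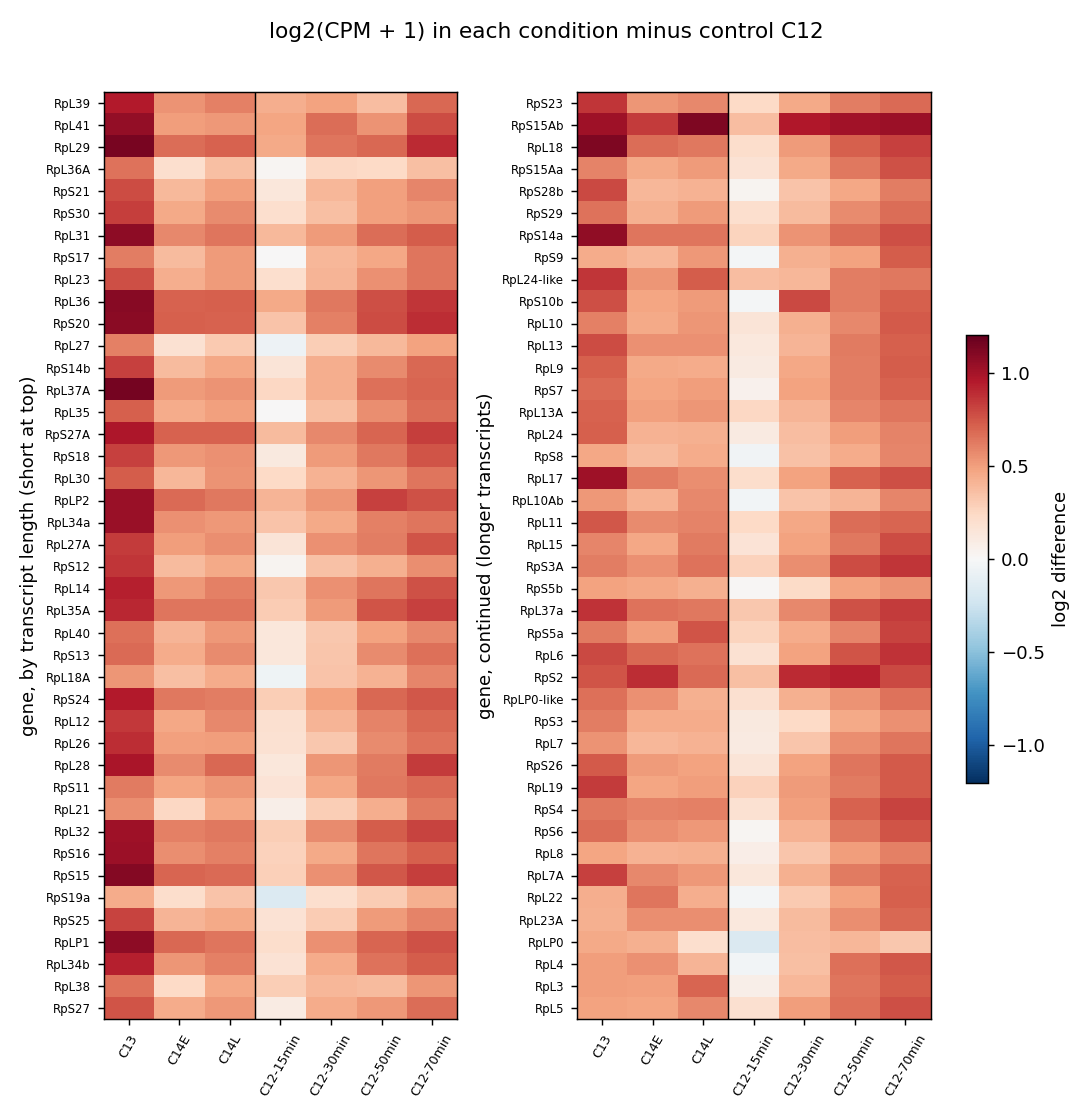
Difference of log2(CPM + 1) from control C12 (colour, red for higher) for the 84 members with at least 10 CPM in every condition, ordered by transcript length from the top of the left panel to the bottom of the right one, with a line between control and arrested conditions. The C13 column is darkest among the short transcripts, and the arrested columns darken from 15 to 70 minutes over all lengths, with RpLP0 and RpL36A the palest at 70 minutes.

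In the arrested embryos the members climbed with time although the nuclei did not divide. At 15 minutes 0 of 92 members were past the 1.5-fold limit against control C12 in either direction, where 2.76% of all genes were higher and 0.75% lower, and 72 of the 82 abundant members were above control C12. The count of higher members was 7 at 30 minutes, 47 at 50 minutes and 75 at 70 minutes, against 6.99%, 11.5% and 16.8% of all genes and 18.8%, 29.4% and 37% of the 940 abundant genes outside the family. At each of these times 0 members were lower, against 16.1%, 17.2% and 18.6% of all genes. All 82 abundant members were above control C12 at 30, 50 and 70 minutes, and their median log2 difference from it was 0.17 at 15 minutes, 0.44 at 30, 0.61 at 50 and 0.71 at 70 minutes. For 74 of the 82 each later time was higher than the one before, from 15 through 30 and 50 to 70 minutes. Over the 3737 genes just described, the median difference from control C12 was 0.12 at 30 and at 50 minutes and -0.13 at 70 minutes. Over the 940 abundant genes outside the family it was 0.37 at 30 minutes, 0.43 at 50 and 0.42 at 70. The 93 of these under 1000 nucleotides had medians of 0.44, 0.55 and 0.56. The abundant members were thus level with these short genes at 30 minutes and above them at 50 and 70 minutes.

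The members at the ends of the range at 70 minutes are given next, beside late cycle 14, in comparisons that share the control C12 embryos. Against control C12 the largest log2 differences at 70 minutes were 1.03 for RpS15Ab, 0.90 for RpL29, 0.88 for RpS20, 0.87 for RpL6 and 0.86 for RpL36. The smallest were 0.32 for RpLP0, 0.36 for RpL36A, 0.43 for RpS19a, 0.49 for RpL27 and 0.53 for RpS30, a ribosomal protein made as a fusion with a ubiquitin-like protein. RpL36 had 869 CPM in control C12, 1433 in late cycle 14 and 1576 at 70 minutes of arrest. RpL27 had 1903, 2372 and 2664 CPM in the same conditions.

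The arrested embryos were then set beside control stages after cycle 12, whose ages only roughly match the times of the arrest, control C14L being older than C12-70min. Against control C13, C12-30min had 2 of 92 members lower, RpL37A and RpL18, and 0 higher, with a median log2 difference of -0.33 over the abundant members, while 13.1% of all genes were lower and 6.23% higher. Against control C14E, C12-50min had 0 members past the limit in either direction, compared with 7.71% of all genes higher and 12.7% lower. C12-70min likewise had 0 against control C14E, with 7.5% of all genes higher and 10.7% lower. It also had 0 of 92 members past the limit against control C14L, where 12% of all genes were higher and 21.4% lower. The abundant members were nonetheless mostly above the control, 79 of 82 of them, with a median log2 difference of 0.15 and a summed CPM 1.12 times as high.

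The members that stood furthest from control C14L at 70 minutes were RpL4 with a log2 difference of 0.33, RpL9 and RpL22 with 0.28 each, RpL41 with 0.26 and RpS15Aa with 0.25. RpL4 had 3108, 4408, 4543 and 4133 CPM in the 4 control stages from C12 to C14L. In the arrest it had 3040 CPM at 15 minutes, 3980 at 30, 4917 at 50 and 5210 at 70 minutes. At the other end lay RpS15Ab and RpL24-like at -0.09 each, RpS30 at -0.04, RpL36A at -0.01 and RpL10Ab at 0.01. These differences are all smaller than 1.5-fold.

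Transcript length moved with the members' differences, and the members are short. The median transcript of the 92 genes was 707.5 nucleotides long, from 288 for RpL39 to 1512 for RpL5, whereas 934 of the 940 abundant genes outside the family have an annotated length and had a median of 2260. In control C13 against control C12, the rank correlation between transcript length and log2 difference was -0.53 across the 82 abundant members and -0.81 across the 934 other genes. The 93 other abundant genes under 1000 nucleotides had a median log2 difference of 0.59 in that comparison, and the 542 over 2000 nucleotides one of -0.22. Within bins of length the members' medians were 0.83 against 0.76 for other genes under 600 nucleotides, 0.76 against 0.57 from 600 to 1000, and 0.50 against 0.22 from 1000 to 2000. All 93 of the short genes outside the family were above their C12 value in control C13, and the members' median was the higher one in each bin. The part that length, or a library that favours short fragments, plays in the members' values was not tested.

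Comparisons with control C13 as the reference ran the other way, and 70 minutes of arrest against control C12 showed little relation to length among the members. From control C13 to control C14E the rank correlation with length was 0.72 across the abundant members and 0.27 across the other genes. Shorter members thus tended to lie further below control C13. The largest falls were log2 differences of -0.64 for RpL37A and -0.55 for RpL41. The control C13 mean enters this comparison and the next with the opposite sign to that in C13 against C12, so these correlations are not separate results. In C12-30min against control C13 the correlation was 0.58 across the members and 0.59 across the others. In C12-70min against control C12 it was 0.08 across the members and -0.27 across the others. There the median log2 difference was 0.56 for the other genes under 1000 nucleotides and 0.27 for those over 2000, against 0.71 for the members. In the same bins of length at 70 minutes the members' medians were 0.69, 0.71 and 0.73, and those of the other genes 0.49, 0.58 and 0.56. In C12-70min against control C14L the short other genes had a median of 0.20 and the members one of 0.15.

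**Figure D3:**
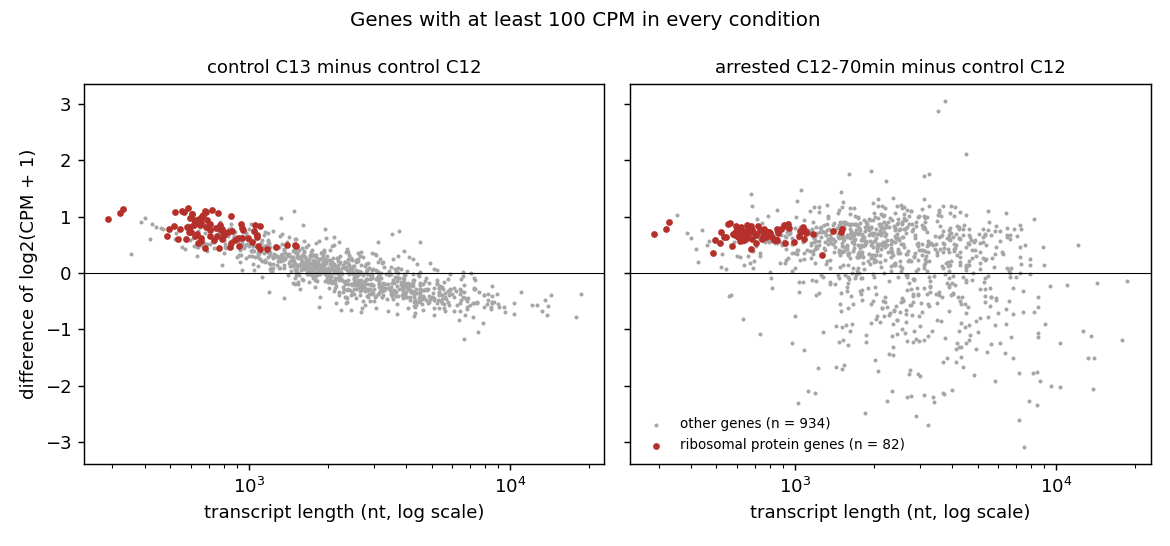
Difference of log2(CPM + 1) (vertical axis) against transcript length in nucleotides (log scale) for the 82 abundant members (red) and the 934 other abundant genes (grey), in control C13 (left) and C12-70min (right), each minus control C12. On the left all genes slope downward with length and the members lie at its upper end, while on the right the members lie between 0.32 and 0.90 with no slope.

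Members with a common role were compared next, beginning with the lateral stalk, which recruits translation factors to the ribosome. Its base RpLP0 (3L:22075867-22077487, plus strand, positions here and below in dm6 from the Ensembl annotation) and its acidic arms RpLP1 and RpLP2 moved apart in both series. RpLP0 had 1559, 2135, 2092 and 1797 CPM in the controls from C12 to C14L, and then 1384, 2018, 2050 and 1948 CPM at 15, 30, 50 and 70 minutes. RpLP1 had 1220, 2577, 1969 and 1911 CPM in the 4 control stages, and 1416, 1780, 1984 and 2077 CPM at the 4 times. RpLP2 had 1495, 3069, 2391 and 2321 CPM in the controls and 1980, 2154, 2639 and 2547 CPM in the arrest. In control C13 against control C12 the 3 genes spanned log2 differences from 0.45 to 1.08, the lowest being RpLP0, whose transcript of 1270 nucleotides is the longest of the 3. Against the same control the span in the arrest was -0.17 to 0.40 at 15 minutes and 0.37 to 0.54 at 30. It was 0.40 to 0.82 at 50 and 0.32 to 0.77 at 70 minutes.

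RpL5 and RpL11, which bind 5S rRNA as a particle before it joins the large subunit, moved together. Both were between 0.58 and 0.59 above control C12 on the log2 scale in control C14L and between 0.70 and 0.77 above it in C12-70min. The medians of the 82 abundant members were near these values, at 0.53 and 0.71. In control C13 they differed more, at 0.48 for RpL5 and 0.74 for RpL11. The 3 members made as fusions with ubiquitin or a ubiquitin-like protein, RpL40, RpS27A and RpS30, were between 0.66 and 0.97 above control C12 in control C13, and between 0.53 and 0.83 above it at 70 minutes.

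A few members left the common course of the arrest. RpS2, a small-subunit protein at the mRNA entry site, had 1480 CPM in control C12 and 1907, 2748, 2832 and 2556 CPM at 15, 30, 50 and 70 minutes, so that it was highest at 50 minutes. RpS10b had 1910 CPM in control C12, 1879 at 15 minutes, 3299 at 30, 2919 at 50 and 3135 at 70 minutes, and was the only abundant member that was highest at 30 minutes. They are named here after their values were seen. Of the remaining abundant members 54 were highest in control C13 and 26 in C12-70min, and the lowest condition was control C12 for 72 of the 82 and C12-15min for 10.

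Several ribosomal proteins have a second gene in flies, and 13 such pairs of related names have both genes in the table. In 7 of them nearly all CPM came from 1 gene. RpL10Ab, RpL22, RpL37a, RpL7, RpS10b, RpS19a and RpS28b each held at least 99.9% of the CPM of their pair in every condition. Reads that align to both copies equally well were not counted by the authors, so values of near-identical copies are uncertain.

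The other 6 pairs had 2 expressed genes, with shares that changed little. RpS5a (X:17143588-17148264, minus strand) and RpS5b (3R:14900432-14901563, minus strand) code for the same small-subunit protein, RpS5b being the copy known for high expression in the female germline. RpS5a had 473, 729, 671 and 799 CPM in the controls from C12 to C14L, and 570, 642, 710 and 829 CPM at 15, 30, 50 and 70 minutes. RpS5b had 655, 915, 903 and 882 CPM in the controls and 661, 766, 914 and 953 CPM in the arrest. RpS5b thus held the larger part of the pair in every condition, from 52.5% in control C14L to 58.1% in control C12.

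RpS14a and RpS14b are neighbours on the X chromosome. RpS14b held between 28.8% and 32.7% of their CPM, with 344, 609, 448 and 477 CPM in the 4 control stages. RpL34a had 186, 384, 273 and 267 CPM in the controls and held between 14.7% and 17.2% of its pair, RpL34b holding the rest. Neither pair changed its balance by more than a few percentage points between any of the conditions.

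Of the pairs with a gene named as like another, RpL24-like and RpLP0-like are the fly relatives of yeast factors that sit in the place of the ribosomal protein while the large subunit is assembled. RpL24-like had 228, 413, 329 and 377 CPM in the controls from C12 to C14L, and 295, 301, 348 and 354 CPM at the 4 times of the arrest. RpLP0-like had 75.1, 119, 110 and 101 CPM in the controls and 86.2, 101, 109 and 118 CPM in the arrest. RpL24-like held between 16.2% and 19.2% of the CPM of its pair and RpLP0-like between 4.60% and 5.86%. Their shares stayed within these limits in both series.

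RpS15Ab (2R:10821676-10822399, plus strand), the minor copy of RpS15Aa (X:13335637-13337705, minus strand), had the largest rise from control C12 of the expressed members in control C14L and at 70 minutes, and one below those of several others in control C13. Its CPM was 36.8, 75.8, 66.5 and 81.3 in the controls from C12 to C14L, and 48.0, 72.6, 75.3 and 76.3 at 15, 30, 50 and 70 minutes. RpS15Aa had 1182, 1781, 1615 and 1684 CPM in the controls and 1335, 1621, 1836 and 2007 CPM in the arrest. RpS15Ab held 3.02% of the pair in control C12 and at most 4.60%, in control C14L.

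**Figure D4:**
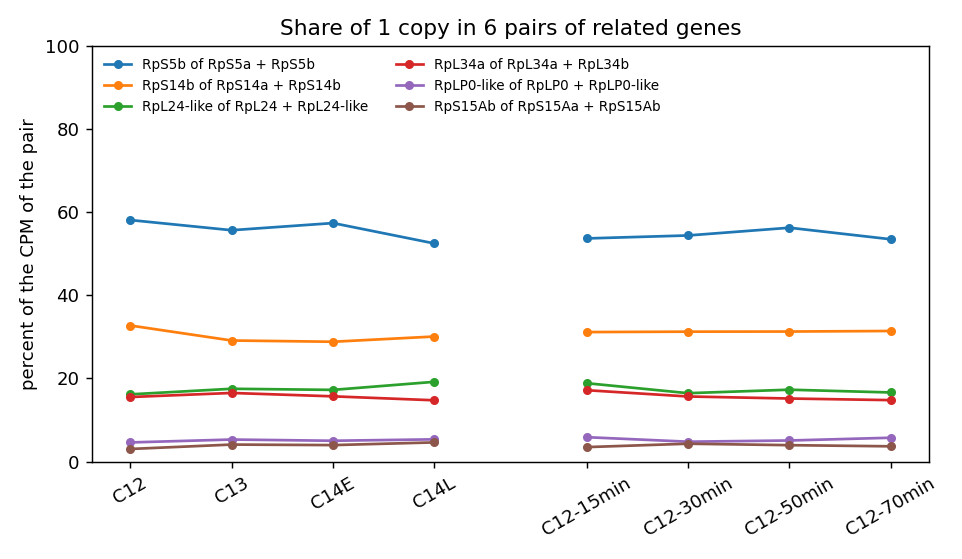
Share of 1 gene in the CPM of its pair, in percent (vertical axis, from 0 to 100), for the 6 pairs with 2 expressed genes, in the 4 control and 4 arrested conditions. The lines are close to level: RpS5b lies between 52.5% and 58.1%, RpS14b between 28.8% and 32.7%, and RpS15Ab between 3.02% and 4.60%.

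For a few members the spread between embryos could be seen. In the 6 conditions with 2 embryos behind the mean, the whole reads of both embryos were solved from the digits of the mean, and a value was kept where a single pair of whole numbers gave it, which worked for 9 to 14 of the 92 members in a condition, mostly the less abundant ones. Of members with at least 10 CPM this gave 25 pairs of values for 7 genes, with a fold of 1.02 to 1.64 between embryos, a median fold of 1.15 and a pooled SD of 0.20 on the log2 scale. With 2 embryos against 2 an exact permutation test cannot give a p below 0.333, so none was run.

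RpS15Ab was solved in all 6 of these conditions. Its embryos had 36.5 and 37.1 CPM in control C12 and 77.3 and 85.3 CPM in control C14L. In the arrest they had 38.3 and 57.8 CPM at 15 minutes, 76.1 and 69.1 at 30, 70.6 and 79.9 at 50, and 81.8 and 70.8 at 70 minutes. Both embryos of each of the other 5 conditions were above both C12 embryos, and the range of the 2 embryos overlapped that of control C14L at 50 and 70 minutes but not at 15 and 30 minutes.

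RpL24-like had 202 and 254 CPM in the C12 embryos, 382 and 372 in control C14L, 320 and 282 at 30 minutes and 303 and 393 at 50 minutes, and so did not overlap control C12 in these conditions. RpLP0-like, with 67.3 and 82.9 CPM in the C12 embryos, had 105 and 98.2 CPM in control C14L, 81.4 and 90.9 at 15 minutes, 108 and 94.2 at 30 and 99.1 and 120 at 50 minutes. It overlapped control C12 at 15 minutes alone among these conditions.

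RpL34a showed the widest gap between embryos of a condition. It had 179 and 194 CPM in control C12, 233 and 301 in control C14L, 179 and 294 at 15 minutes, 263 and 249 at 30, and 255 and 314 CPM at 50 minutes. At 15 minutes the embryo with fewer reads was the higher one for RpL34a, RpS15Ab, RpS14b and RpLP0-like alike. In that embryo other genes of 10 to 300 CPM under 1000 nucleotides were 0.56 above those over 2000 nucleotides in their median log2 difference from control C12, and in the other embryo 0.03 below them. The same gap was 0.92 and 0.43 in the embryos of 30 minutes, 0.82 and 1.22 at 50, and 1.84 and 1.46 at 70 minutes. It was 0.64 and 0.84 in control C14L. The C12 embryos had -0.05 and 0.05, which mirror each other because these embryos are set against their own mean. Short genes outside the family were thus above long ones in 9 of the 10 embryos outside control C12, relative to the C12 mean that all 10 share. The gap was widest at 70 minutes, where the members were highest in the arrest. Only 1990 genes had single-embryo values there, 385 of them short and 859 long. The other conditions had 2634 to 2638 genes, 480 of them short, so the gaps are not taken over the same genes. Among the abundant genes outside the family, the medians against control C12 were 0.56 (short) and 0.27 (long) at 70 minutes. They were 0.59 and -0.22 in control C13. The part of the gap in the members' values was not tested.

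**Figure D5:**
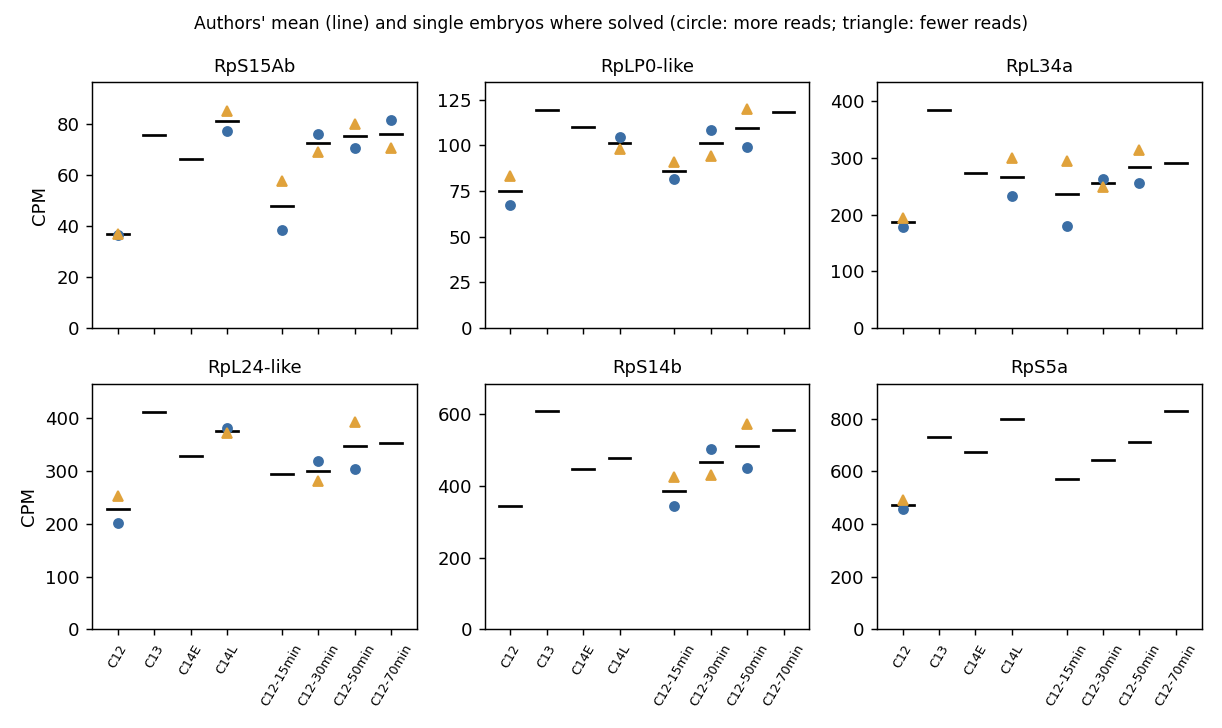
CPM (vertical axis, from 0) of 6 less abundant members, with the authors' mean as a line in each of the 8 conditions and, where whole reads could be solved, the embryo with more reads as a circle and the one with fewer as a triangle. For RpS15Ab both C12 embryos lie near 37 CPM and both C14L embryos above 77 CPM, and at 15 minutes the triangle lies above the circle for every member with a solution.

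The 8 members under 2 CPM in every condition were RpL7-like, RpL10Aa, RpL22-like, RpL37b, RpS10a, RpS19b, RpS28a and RpS28-like. RpS19b, RpS10a, RpL22-like and RpL37b are copies known for expression in the germline. RpL37b had 0 reads in both C12 embryos, of 103944076 reads, which allows up to 0.0577 CPM if reads are counted in pairs, and 0 at 15 and 30 minutes. It had 0.776 and 1.80 CPM in the embryos of control C14L and 1.12 and 0.354 CPM in those of C12-70min. A count of 0 allows 3 read pairs, or 6 reads over both libraries. Its mean was 22.3 times this limit in control C14L and 12.7 times it in C12-70min. Neither ratio allows for the counting error of the mean itself or for the spread between embryos.

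RpS19b had 0.459 CPM in control C12 and its highest value, 1.57 CPM, in control C14L. RpS10a had 0 reads in control C12 and at most 0.606 CPM, at 70 minutes, where 1 embryo had 1.21 CPM and the other 0. RpL22-like had 0.376 CPM in control C12, and 1.40 and 0 CPM in the 2 embryos at 70 minutes. RpL7-like, RpL10Aa, RpS28a and RpS28-like did not pass 0.0758 CPM anywhere. Exons of RpL7-like and RpS28-like overlap those of another gene on the same strand, so their low values are uncertain. Of the 49 nonzero read numbers of these 8 genes, 40 were even, so the reads were not independent molecules, and for this reason the limit given for RpL37b counts pairs.

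The table also holds ribosomal proteins under other names and the neighbouring parts of the pathway. sta, the small-subunit protein known as SA in other animals, had 2567 CPM in control C12, 1937 at 15 minutes and 3064 at 70 minutes. Rack1, a scaffold on the small subunit, had 1393, 1531 and 2161 CPM there. Both are part of the ribosome but fall outside the rule on names.

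The mitochondrial ribosome, whose 73 listed genes are also encoded in the nucleus, took another course. In C12-70min against control C12, 4 of its 73 genes were higher and 23 lower, against 16.8% and 18.6% of all genes. Their summed CPM went from 2669 in control C12 to 2198. In control C13 against control C12 24 were higher and 6 lower, against 4.14% and 11% of all genes, with a sum of 3526 CPM. Transcripts of the mitochondrial genome itself, named mt:, made up 3.08% of CPM in control C12 and 6.62% in C12-70min.

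Of 55 translation factor genes 19 were higher and 15 lower in C12-70min than in control C12. Among all genes 16.8% were higher and 18.6% lower, and 37% of the 940 abundant genes outside the family were higher. The summed CPM of the translation factors went from 40699 to 58221. Among the elongation factors eEF1alpha1, which brings tRNA to the ribosome, went from 13841 to 19580 CPM, a fold under 1.5, and eEF2, which moves the ribosome along, from 5850 to 10052 CPM. The cap-binding factor eIF4E1 went the other way, from 433 to 81.4 CPM. In control C13 against control C12 the factors had 4 higher and 8 lower, against 4.14% and 11% of all genes. There eEF1alpha1 stood at 13253 CPM.

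Of 17 genes for ribosome assembly and rRNA processing 6 were higher and 7 lower in C12-70min than in control C12. The shares of all genes were 16.8% and 18.6%. Nopp140, a nucleolar chaperone, went from 974 to 1821 CPM and Nop56, a component of box C/D particles, from 342 to 669 CPM. Tif-IA, which recruits RNA polymerase I, went from 151 to 11.6 CPM. Of 15 regulators of ribosomal protein mRNAs or of growth, 4 were higher and 8 lower, beside the same shares of all genes. raptor, a TOR partner, went from 381 to 35.1 CPM and larp, which binds such mRNAs, from 255 to 67.4 CPM, while M1BP, which binds promoters of ribosomal protein genes, went from 116 to 182 CPM.

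The genes lie on all major chromosomes, 19 on 2L, 21 on 2R, 14 on 3L, 23 on 3R, 14 on X and 1, RpS3A, on chromosome 4. Their 5′ untranslated regions had a median of 70 nucleotides, against 163 for the other abundant genes. Between the start and end of 28 members, on the same strand, lie 74 of the 269 annotated snoRNA genes, 14 of them in RpS5a. Some of these snoRNA genes overlap an annotated exon of the member, as in RpS6 and RpL28. Exons of 32 members overlap those of another gene, for 10 of them on the same strand, and RpL12 and RpL39 overlap each other. The strand setting of the counting and its handling of shared exons are not given in the sources used here, so values of overlapping genes are uncertain.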

How the data were processed

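Single-embryo polyA libraries were aligned by the authors with STAR 2.5.3a to BDGP6 (dm6) after trimming with Trim Galore 0.6.0, keeping unique alignments, and counted with featureCounts of Subread 1.6.0. The deposited values are log2(CPM + 1), with the CPM averaged by the authors over the embryos of a condition, for 17735 genes in 8 columns to 10 significant digits. The CPM of each column sum to 1000000. Columns were joined to conditions by name, and values were turned back into CPM for sums.

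Members and lists were chosen with earlier results of these data known. Named members are the 5 highest per kb in control C12, the 5 at either end of each of 3 comparisons (C14L and C12-70min against C12, C12-70min against C14L) among those with at least 10 CPM in either condition, both genes of each pair, and members near 0. Higher and lower mean a fold above 1.5, without a test. Gene positions, transcript lengths and snoRNAs come from Ensembl release 115 of BDGP6. Library sizes and single-embryo reads were solved from the smallest steps of the columns, a step chosen after the data were seen and tested on simulated data, using scipy 1.17.1, pandas 2.3.3 and numpy 2.4.6 under Python 3.11.15; figures were drawn with matplotlib 3.10.9. No sequences are shown.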

Additional observations from a re-analysis of the deposited data

How the results depend on the processing

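When differences were centred on the median of 3737 genes that keep 10 CPM or more throughout, 86 rather than 31 members were higher in control C14L than in control C12 and the members' median log2 difference was 0.82 rather than 0.53. Over all genes the share called higher went from 19.5% to 26.6% under the same centring. With a fold above 2, 2 members were higher in control C14L, 1 in C12-70min and 16 in control C13, each against control C12. No share of all genes past a fold of 2 is given, so these counts are not set beside other genes. With a pseudocount of 0.001, 1 member was lower in control C14L than in control C12. In C12-70min against control C14L, 2 members were higher and 1 lower with a pseudocount of 0.1, and 4 higher and 1 lower with one of 0.001, where 0 were either with the deposited pseudocount of 1. The members whose calls depend on the pseudocount all stay under 2 CPM. The alternatives moved the ratio of summed CPM to 1.45 to 1.49 for C14L and 1.62 to 1.68 for C12-70min, each to control C12. The same alternatives for control C13 and the single-embryo reads were added after the data had been seen. No paired analysis was possible because the columns are means over embryos and carry no replicate numbers, and for the same reason no embryo could be left out of a mean.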
